A study of Mus musculus with 8 samples.

Results

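The mean level of each liver transcript was compared between 2 deposited tables of one mouse study. One of these tables covers RNA from whole liver and the other covers RNA from purified endoplasmic reticulum (ER), but neither names which. They are called here the larger table, with 23634 genes, and the smaller table, with 21201 genes, and neither is assigned to a preparation. The 8 libraries form 4 groups of 2: livers of Cpeb4 KO mice and of Wild-type mice as total RNA, and ER purified from livers of Cpeb4 KO and Wild-type mice after an overnight fast. Both genotypes enter every mean, no treatment was given, and the labels do not give age, sex or strain. Nor do they say how the knockout was made, whether the total RNA came from fasted or fed mice, or whether each library stands for its own mouse. Genes were chosen by their deposited mean, at least 100 normalised reads in either table, which 11097 of the 20460 genes in both tables met. Of these, 4398 were set apart because at least 5% of their sequence words also occur in another gene, 29 had no entry in the annotation, and 6670 were kept as members. The levels below are normalised reads per 1000000 of the table's sum (CPM), and each ratio is the log2 of the CPM in the larger table over that in the smaller. Each table was scaled by size factors of its own, as its values show, so no ratio between the tables was tested, and every list is described by its counts and median beside those of all members.

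In cells, ribosomes that begin a protein with a hydrophobic signal sequence are bound by the signal recognition particle and docked at the translocon of the ER membrane, so mRNAs of secreted, lysosomal and membrane proteins are translated there. Proteins of the cytosol, nucleus, peroxisomal matrix and mitochondrial matrix are mostly made on free ribosomes, although many of these mRNAs are also found at the ER. The hepatocyte, which secretes most plasma proteins and carries abundant ER, is the main source of liver RNA.

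The coding starts of 5 members illustrate a hydrophobic stretch near the protein start, a feature by which members are classed below. They are the member with the highest summed CPM in each of 5 gene lists. The first 3 encode proteins that enter the ER and the last 2 do not. Each line gives the first 75 coding bases of a GENCODE M21 transcript (GRCm38), 5′ to 3′. Transcripts tagged principal were taken first, then those tagged basic, then those with the longest reading frame. The codons of the most hydrophobic 8 residues among those shown are in capitals.
Alb: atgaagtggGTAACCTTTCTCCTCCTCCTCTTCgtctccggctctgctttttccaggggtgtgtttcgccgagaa
P4hb: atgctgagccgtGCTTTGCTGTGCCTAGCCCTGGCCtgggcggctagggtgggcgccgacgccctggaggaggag
Lamp2: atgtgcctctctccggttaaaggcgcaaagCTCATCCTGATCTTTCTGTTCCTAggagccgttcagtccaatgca
Mat1a: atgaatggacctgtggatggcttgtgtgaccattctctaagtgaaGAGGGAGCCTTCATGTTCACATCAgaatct
Psmb4: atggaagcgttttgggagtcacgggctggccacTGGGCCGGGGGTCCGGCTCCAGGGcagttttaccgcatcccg

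The capitals of Alb (serum albumin, chr5:90460897-90476602) encode residues with a mean Kyte-Doolittle hydropathy of 3.04, a scale on which hydrophobic residues are positive. Those of P4hb (protein disulfide isomerase, chr11:120560298-120573253) average 2.89, and those of Lamp2 (a lysosomal membrane glycoprotein, chrX:38401357-38456454) 3.72. The window of Mat1a (the methionine adenosyltransferase of hepatocytes, chr14:41105035-41124412) averages 0.487. In Psmb4 (a proteasome subunit, chr3:94884093-94886961) it averages -0.212. The log2 ratios of the first 3 genes were 1.21, 0.83 and 0.79, and those of the last 2 were -0.05 and -0.996. The 3 coding starts with a hydrophobic window thus belonged to genes with a higher share of the larger table.

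Across the 6670 members, levels in the 2 tables ran closely together, with a Pearson r of 0.914 between log2 CPM values and a Spearman rank correlation of 0.934 over the 6670 genes, which are not independent replicates. The median ratio was 0.27, and the middle 50% of members lay between -0.17 and 0.67. Within 2-fold lay 5702 members. A CPM at least 2-fold higher in the larger table was found for 815 members (12.2%), and at least 2-fold lower for 153 (2.29%). A ratio above 0 was found for 4431 (66.4%). Counts of each list are read against these shares. The median alone tilts this split: with the ratios recentred on it, 493 members were at least 2-fold higher and 404 at least 2-fold lower. Values of lists are given as ratios, to be read against the members' median of 0.27, and for some lists also relative to that median. Members under 100 normalised reads in one table, 506 in the smaller and 87 in the larger, entered only through the table where they are high. Among the 6077 with at least 100 in both tables, 541 were at least 2-fold higher and 138 at least 2-fold lower. Just inside the minimum stood Gucy1b1, Peli3 and Phldb1, with means of 100.1, 100.1 and 100.2 in the larger table, against 72.1, 34.6 and 63.0 in the smaller. Just outside it stood A930004D18Rik with 99.98 in the smaller table, Tia1 with 99.97 in the larger and A330035P11Rik with 99.96 in the larger.

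The means also hold the whole reads of the 4 libraries behind each table, as described with the processing, so that library values could be worked out for members under a mean of 5000. They were resolved in both tables for 5716 members. Libraries were not matched to samples, and their values are given without group. Their median coefficient of variation within a table was 7.29% in the larger, against 9.52% in the smaller. The search allows a limited spread between libraries and less often resolves genes beyond it, so this closeness and the counts of tables without overlap hold only for the genes it resolved. All 4 libraries of the larger table were above all 4 of the smaller for 2859 members (50%), and all 4 of the smaller above all 4 of the larger for 1026 (17.9%). A table and its preparation, library making and sequencing cannot be told apart in these counts.

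Genes that share sequence with other genes had a wider range of ratios and are kept out of the counts of members and lists, though not out of the summed levels of cell type markers. Of the 4398 set apart, 1384 were at least 2-fold higher in the larger table (31.5%), and 224 at least 2-fold lower (5.09%). The upper end of the ratios widened with the share of 31-base words found in another gene. The 95th percentile was 1.46 for the 4257 genes with under 1% of such words and 1.56 for the 2413 with 1 to 5%. It was 2.32 at 5 to 10%, 6.52 at 10 to 25%, 8.08 at 25 to 50%, 6.04 at 50 to 80% and 4.41 above 80%. A level at least 8-fold higher in the larger table was seen for 1.15% of genes in the lowest class and for 27.4% of genes with 25 to 50% of shared words. The 8 largest ratios by size among those set apart all belonged to processed pseudogenes, such as Gm12912, with 131 CPM in the larger table, against 0.00413 in the smaller, and Gm4076, with 47.4 and 0.0243. In Gm12912 the larger table's libraries held 128, 129, 133 and 133 CPM, whereas the smaller table's held 0.0165 in 1 library and 0 in the other 3.

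**Figure D1:**
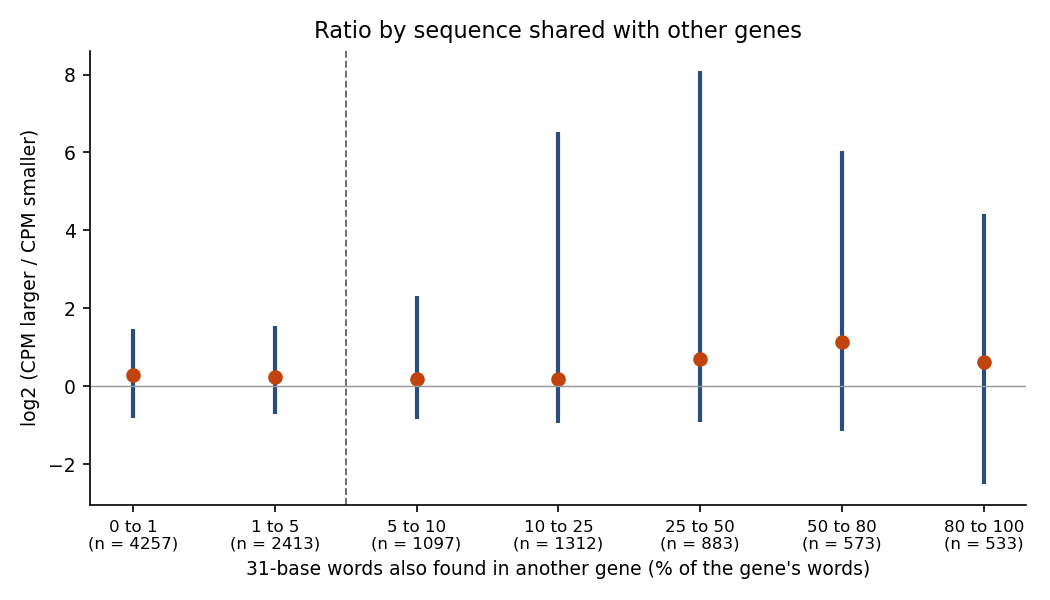
Log2 ratio of mean CPM (larger over smaller table, y axis) by the share of a gene's 31-base words that also occur in another gene (x axis, percent; n genes in each class). Points are medians and bars run from the 5th to the 95th percentile; the dashed line marks the limit of 5%, beyond which the 95th percentile rises from 1.56 to 2.32, and it is 8.08 at 25 to 50%.

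Cytosolic ribosomal proteins, the subunits of the cytosolic ribosome, show what this choice removes: 36 of their 37 genes above the minimum were set apart for sequence shared with other genes. The 36 had a median ratio of -0.49 and ranged from -1.12 to 0.46. Their levels are uncertain, since reads from a gene and from its copies may have been counted differently in the 2 tables.

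Protein class and transcript length both separated the kept members, and neither entered the choice of genes. Of 6522 protein-coding members with a translated reading frame, 553 encode a hydrophobic start, defined as 8 residues within the first 35 with a mean hydropathy of at least 2.5, and have no more than 1 hydrophobic segment of 19 residues. These had a median ratio of 0.65, and 143 (25.9%) were at least 2-fold higher in the larger table. Members with 2 or more such segments, the pattern of proteins that span a membrane several times, numbered 1034 and had a median of 0.74, with 303 (29.3%) at least 2-fold higher. The 818 members with 1 segment and no hydrophobic start had a median of 0.30. The 4117 with neither had a median of 0.11, which lies below the members' median of 0.27, and 232 (5.64%) were at least 2-fold higher. All 4 libraries of the larger table were above all 4 of the smaller for 79.1% of resolved members with 2 or more segments, for 67.5% of those with a hydrophobic start and for 40.4% of those with neither.

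The ratio also grew with transcript length. Its Spearman rank correlation with the length of the longest basic transcript was 0.51 across the 6522 coding members. It was 0.40 with coding length, 0.24 with the number of exons, 0.16 with the hydropathy of the protein start and -0.04 with GC content. With the CPM itself it was -0.41 in the smaller table and -0.10 in the larger, and both levels enter the ratio. These values are a description across genes that share libraries and depth. The median ratio was -0.79 for the 213 members under 1000 bases and 0.59 for the 722 over 7000 bases. Of the 213 shortest, 51 (23.9%) were at least 2-fold lower in the larger table, against 2.29% of all members. By GC content the medians stayed between 0.23 and 0.36 over 6 classes. Whether fragment length, RNA integrity or library making differed between the tables was not tested.

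Both features held side by side. Among members of 2000 to 3000 bases the median was 0.65 for the 124 with a hydrophobic start and 0.68 for the 205 with 2 or more segments, whereas the 860 with neither had -0.05. Between 1500 and 2000 bases the same 3 medians were 0.60, 0.40 and -0.29. From 4500 to 7000 bases they were 0.97, 0.95 and 0.42. A hydrophobic start went with a median 0.21 higher than neither under 1000 bases and 0.88 higher between 1500 and 2000 bases, the smallest and the largest of the 7 gaps.

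**Figure D2:**
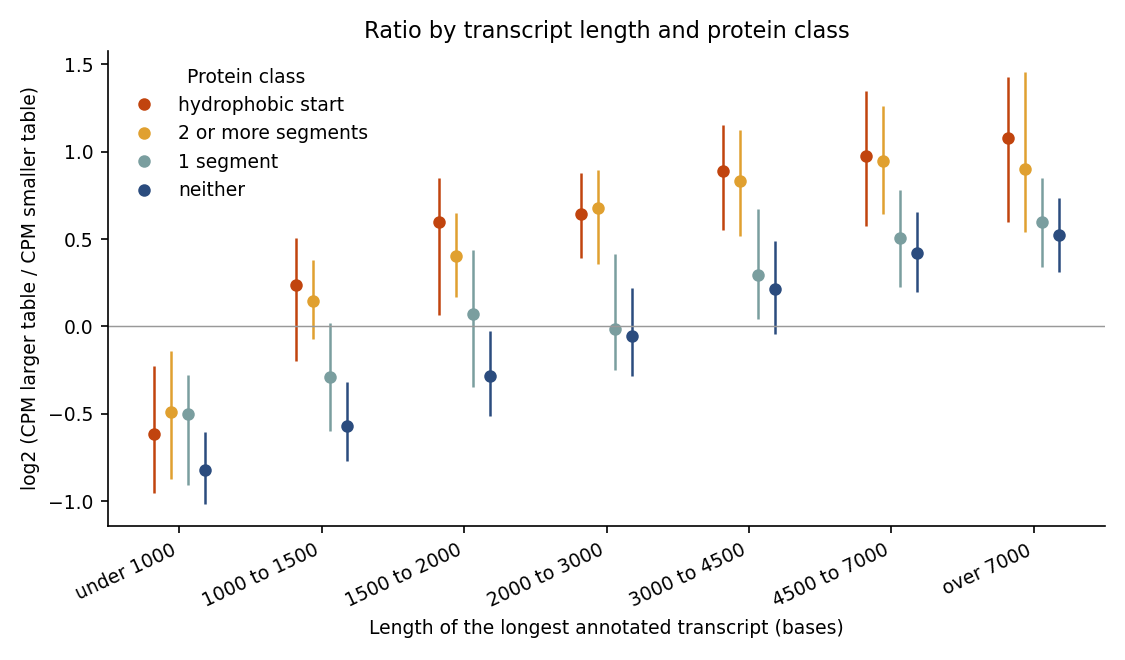
Log2 ratio of mean CPM (larger over smaller table, y axis) by length of the longest annotated transcript, among those tagged basic (x axis, bases), and by protein class (colours). Points are medians and bars the 25th to 75th percentile over genes; medians of the neither class climb from -0.82 under 1000 bases to 0.53 over 7000 bases, and those with a hydrophobic start lie above them in each of the 7 length classes.

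Secreted plasma proteins, made by hepatocytes, had a higher share of the larger table. Of 35 genes above the minimum, 30 were kept; their median was 0.79, which is 0.52 above that of all members, and 27 of 30 ratios were above 0. At least 2-fold higher were 8 of the 30 and at least 2-fold lower none. Apob, the structural protein of very-low-density lipoprotein, stood at 2620.1 CPM in the larger table, against 691 in the smaller, a log2 ratio of 1.92. Complement C3 stood at 1.86, and Fga, the fibrinogen alpha chain, at 1.42. Alb held 34998 CPM in the larger table, against 15083 in the smaller. Apoe (0.43) and Apoa1 (0.56), apolipoproteins of circulating lipoprotein particles, were nearer to the members' median. The 3 ratios under 0 were those of small apolipoproteins: Apoa2 at -0.28, Apoc3 at -0.38 and Apoc1 at -0.71. Relative to coding members of the same length class, 29 of the 30 secreted genes were above the median and the list's median was 0.89. Library values in both tables could not be worked out for any of the 30.

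ER chaperones and folding enzymes, which fold and survey new proteins inside the ER, were all above 0. The 18 kept genes had a median of 0.94, and 5 (27.8%, beside 12.2% of all members) were at least 2-fold higher in the larger table. Hyou1, a chaperone of the ER lumen, had library values of 51.1, 62.9, 63.7 and 71.9 CPM in the larger table, against 17.7, 22.1, 23.8 and 25.2 in the smaller, and the tables did not overlap. Sel1l, an adaptor of the ubiquitin ligase that clears misfolded ER proteins, had 70.5, 71.2, 78.7 and 80 CPM in the larger table. In the smaller table Sel1l had 24.5, 28.1, 28.7 and 28.9. Hspa5 (BiP), the main ER chaperone of the Hsp70 family, had means of 294 and 131 CPM, a ratio of 1.17. The lowest ratio was 0.14, for Derl2, a membrane protein of ER-associated degradation. Of the 10 genes resolved in both tables, 8 had all libraries of the larger table above those of the smaller, beside 50% of all resolved members.

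Enzymes anchored in the ER membrane, which carry out sterol, fatty acid, bile acid and drug metabolism, had a median of 0.77 over 24 kept genes, 23 of them above 0 and 7 at least 2-fold higher. Fads2, the delta-6 fatty acid desaturase, was highest at 2.28, with 225 CPM in the larger table, against 46.3 in the smaller. Por, the electron donor of microsomal cytochromes P450, stood at 1.58. Cyp7a1, the rate-limiting enzyme of bile acid synthesis, had 54.8, 56.2, 57.7 and 79.9 CPM in the larger table. Its libraries in the smaller table were at 19.7, 21, 23.5 and 27.1. Each Cyp7a1 library of the larger table lay above every one of the smaller. Fmo5, a flavin-containing monooxygenase, was the only one under 0, at -0.16.

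The machinery of translocation, glycosylation and ER export, kept for 17 of 32 genes, had a median of 0.64. Ratios above 0 were found for 13 (76.5%, beside 66.4% of all members) and ratios of at least 2-fold for 2 (11.8%, beside 12.2%). Lman1, a cargo receptor for coagulation factors, had libraries of 107, 109, 119 and 128 CPM against 37.3, 41.5, 42.4 and 47.5. Stt3a, a catalytic subunit of oligosaccharyltransferase, stood at 1.12. The 4 members under 0 were Dad1 (-0.41), Sec11c (-0.17), Ssr4 (-0.15) and Sar1b (-0.02). Dad1, a small oligosaccharyltransferase subunit, had 43.7, 44.6, 45.4 and 47.5 CPM in the larger table. In the smaller table it had 51.8, 58.8, 64.7 and 65.1, so that here the smaller table was higher without overlap.

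Plasma membrane transporters and receptors had a median of 1.08 over 28 kept genes, of which 27 were above 0 and 17 at least 2-fold higher. This is 60.7% of the list, beside 12.2% of all members. Lrp1, an endocytic receptor for lipoprotein remnants, was highest at 2.27, with 375 and 78.0 CPM. Asgr1, a subunit of the asialoglycoprotein receptor of hepatocytes, was lowest at -0.15. All 10 resolved genes of this list had every library of the larger table above every one of the smaller, beside 50% of all resolved members.

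Solute carriers gave a wider view of the same kind of protein, in lists defined by gene symbol after the values had been seen. The Slc25 family, carriers of the inner mitochondrial membrane, was set beside all other Slc genes, most of which act in the plasma membrane or in membranes of the secretory pathway. The 117 other solute carriers had a median of 0.82, 112 above 0 and 32 at least 2-fold higher. The 26 mitochondrial carriers had a median of 0.11, which becomes -0.16 relative to all members, with 18 (69.2%) above 0 and 3 (11.5%) at least 2-fold higher. Both shares are near the 66.4% and 12.2% of all members. A hydrophobic start or 2 or more segments was found in 111 of the 117 other carriers and in 7 of the 26 mitochondrial ones, and median transcript lengths were 3370 and 2642 bases. Relative to the same length class, 106 of 117 and 16 of 26 were above the median, and the list medians were 0.53 and 0.18. The median of the mitochondrial carriers was thus under that of all members but above that of coding members of like length. Slc25a30, a member through its mean in the larger table alone, was highest at 2.79, with libraries of 5.85, 9.85, 12 and 13.1 CPM in the larger table, against 0.99, 1.07, 1.44 and 2.39 in the smaller. Slc25a4, an adenine nucleotide carrier, stood at -0.68.

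Lysosomal proteins, which pass through the ER on their way to the lysosome, had 13 kept genes, all above 0, with a median of 0.97 and 6 at least 2-fold higher. Gaa, acid alpha-glucosidase, had 65.9, 68.1, 69.3 and 69.4 CPM in the larger table, against 18.3, 18.3, 18.4 and 19.7 in the smaller. The lowest ratio was 0.37, for Npc2, a cholesterol-binding protein of the lysosome lumen. Each of the 8 resolved genes had all libraries of the larger table above those of the smaller, beside 50% of all resolved members.

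**Figure D3:**
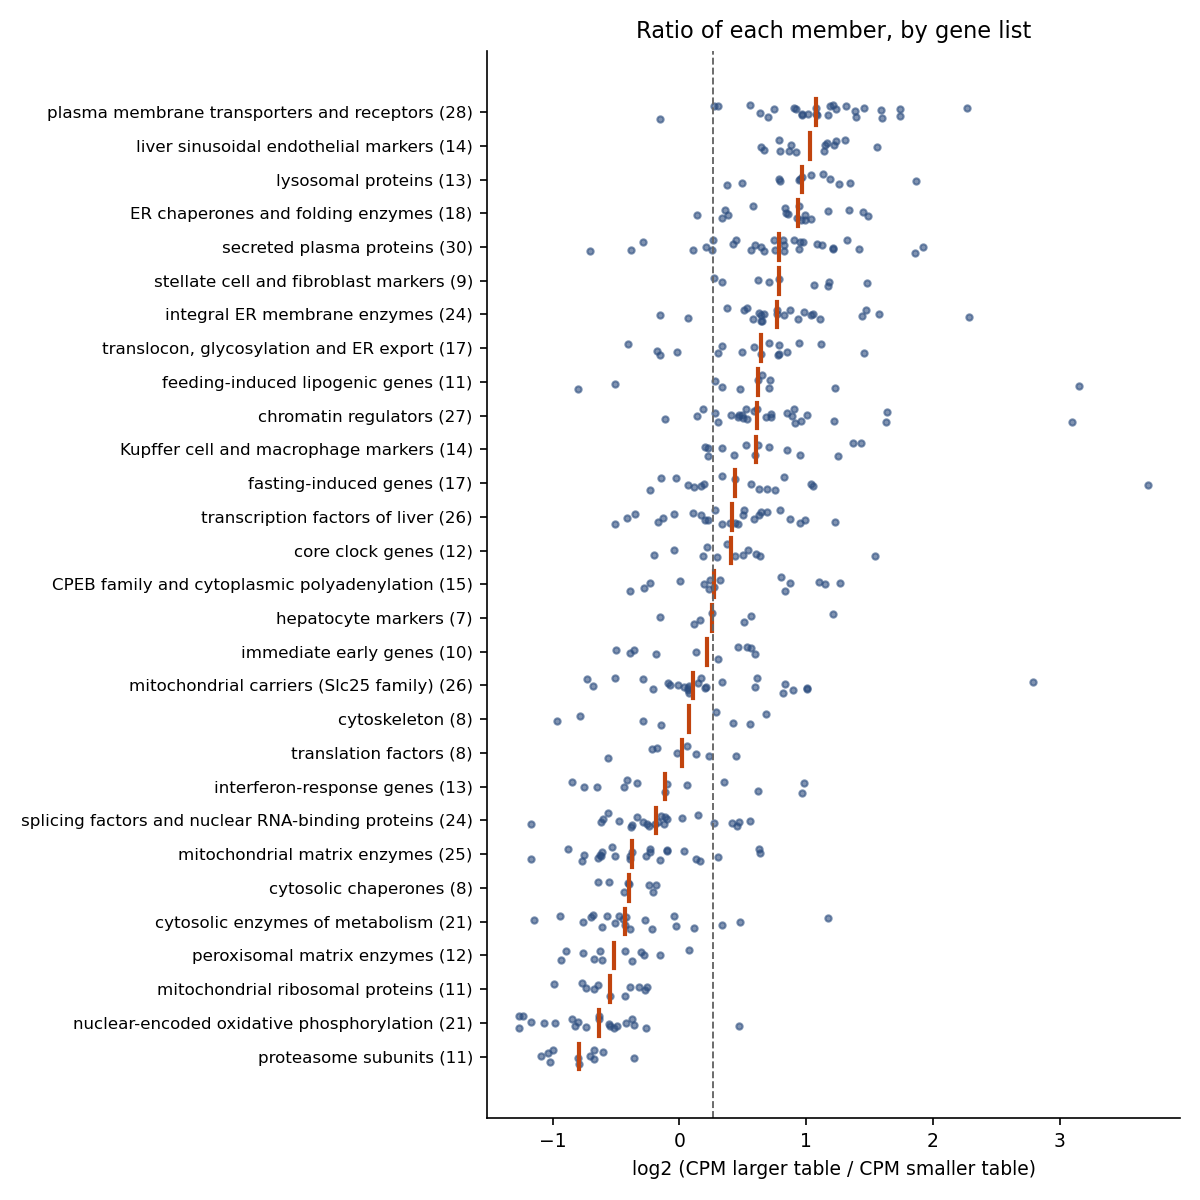
Log2 ratio of mean CPM (larger over smaller table, x axis) of each kept member (points) in the gene lists with 7 to 40 kept members (y axis, number of members in brackets). Red bars are list medians and the dashed line is the median of all 6670 members, 0.27; list medians run from -0.79 for proteasome subunits to 1.08 for plasma membrane transporters and receptors.

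Several lists of proteins made in the cytosol had medians under 0, but not all. Proteasome subunits, the protease that degrades ubiquitylated proteins, had 11 kept genes, all under 0, with a median of -0.79 and 3 at least 2-fold lower in the larger table. Psmb2 was lowest at -1.09, with 78.1 CPM in the larger table, against 167 in the smaller. Psmd14, a deubiquitylating subunit, had libraries of 58.1, 62.1, 63.0 and 64.9 CPM against 88.3, 92.9, 94.8 and 99.6. Cytosolic chaperones had a median of -0.40 over 8 kept genes, none above 0. Cytosolic enzymes of metabolism had a median of -0.43 over 21 kept genes, 4 above 0. Fabp1, the fatty acid binding protein of liver, was lowest at -1.14, with 3128 CPM in the larger table, against 6917 in the smaller. Arg1, the last enzyme of the urea cycle, stood at -0.57 and Mat1a at -0.05. Gsta3, a glutathione transferase, was highest at 1.17. Translation factors, with a median of 0.02, and cytoskeletal proteins, with 0.07, each had 4 of 8 kept genes above 0. Relative to all members these medians were -0.25 and -0.19, so both lists also lay under the members' median. Against the same length class, 1 of 8 translation factors and 2 of 8 cytoskeletal genes were above the median.

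Nuclear genes for mitochondrial proteins, imported after translation, were also mostly under 0. Oxidative phosphorylation subunits had a median of -0.63 over 21 kept genes, with 5 at least 2-fold lower and 20 under 0. Ndufa4 and Uqcrfs1, subunits of the respiratory chain, were lowest at -1.27 and -1.26. Ndufb8, a complex I subunit, was the only one above 0, with 68.2, 68.3, 69.0 and 71.1 CPM in the larger table. Its smaller-table libraries were at 46.4, 48.9, 50.5 and 53.7. Mitochondrial ribosomal proteins had 11 kept genes, all under 0, with a median of -0.55. In all 10 resolved ones every library of the smaller table was above every one of the larger, beside 17.9% of all resolved members. Mrps15, for example, had 23.9, 25.2, 26.2 and 26.5 CPM against 41.2, 41.9, 44 and 46.8. Mitochondrial matrix enzymes had a median of -0.37 over 25 genes, 6 above 0. Pcca, the alpha subunit of propionyl-CoA carboxylase, was highest at 0.64 and Suclg1, of succinyl-CoA ligase, lowest at -1.17. Neither table lists a gene encoded by mitochondrial DNA, so such genes are not analysed here.

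Peroxisomal matrix enzymes, also imported from the cytosol, had a median of -0.52 over 12 genes, 1 of them above 0. Ech1 was lowest at -0.94. Short transcripts were common in these lists, with median lengths of 1316 bases for proteasome subunits, 1445 for oxidative phosphorylation and 1498 for mitochondrial ribosomal proteins. Against coding members of the same length class the list medians were -0.43, -0.39 and -0.28, so each stayed under 0. Matrix enzymes (-0.48), peroxisomal enzymes (-0.46) and cytosolic enzymes (-0.45) also stayed under the median of their length class.

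Lists of nuclear proteins differed. Splicing factors and nuclear RNA-binding proteins had a median of -0.18 over 24 genes, 7 above 0. Their median transcript length was 3345 bases, and relative to the same length class their median was -0.28, with 1 of 24 above it. Luc7l3, a splicing factor with serine- and arginine-rich repeats, had 27.1, 27.9, 28.8 and 29.0 CPM in the larger table, against 39.6, 43.1, 43.7 and 47.0 in the smaller. Son, a large nuclear speckle protein, was highest at 0.55 and Hnrnpa2b1 lowest at -1.17. Chromatin regulators, with a median transcript length of 9179 bases, had a median of 0.61 over 27 genes, 26 above 0 and 5 (18.5%) at least 2-fold higher. Relative to the same length class their median was 0.02, with 14 of 27 above it. Baz2b, a bromodomain protein, was the highest at 3.10, with 53.9, 60.2, 63.2 and 63.4 CPM against 5.71, 6.92, 7.31 and 8.09.

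Transcription factors of liver had a median of 0.42 over 26 kept genes, 1 of them at least 2-fold higher. That one was Srebf1, the transcription factor of lipogenesis, whose precursor is an ER membrane protein, with 38.3, 48.4, 60.0 and 66.4 CPM in the larger table. Its libraries in the smaller table were at 16.2, 22.1, 26.1 and 26.7. Nr1h4, the bile acid receptor FXR, was lowest at -0.51. Core clock genes had a median of 0.41 over 12 genes, and immediate early genes 0.22 over 10, which is -0.05 relative to all members.

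Genes that follow feeding were examined because the ER mice had fasted overnight and the feeding state of the other mice is not stated, so preparation and feeding cannot be told apart. Fasting-induced genes had a median of 0.44 over 17 genes, 14 above 0 and 3 (17.6%) at least 2-fold higher. Relative to all members this median is 0.17, and 0.04 with no limit on shared words. Pck1, the gluconeogenic enzyme, stood at -0.03, Pdk4, an inhibitor of pyruvate oxidation, at 0.20 and Cpt1a, of mitochondrial fatty acid import, at 0.76. Irs2, an adaptor of the insulin receptor and a member through its mean in the larger table alone, was the highest at 3.70. Its libraries held 6.39, 7.84, 8.28 and 8.71 CPM in the larger table, against 0.259, 0.624, 0.744 and 0.776 in the smaller. Lipogenic genes induced by feeding had a median of 0.62 over 11 genes, 2 (18.2%) at least 2-fold higher. Relative to all members this is 0.35, which became 0.15 against the same length class and 0.19 with no limit on shared words. Gpam, which starts triglyceride synthesis, was the highest at 3.16, with 51.3, 53.9, 58.2 and 62.6 CPM against 5.02, 5.13, 6.27 and 8.93. Fasn, fatty acid synthase, stood at 0.33. Thrsp, a lipogenic nuclear protein, was lowest at -0.80, with libraries of 37.2, 48.7, 51.8 and 61.5 CPM in the larger table, against 75.9, 85.1, 88.2 and 98.2 in the smaller. Genes of either list thus lay on both sides.

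Hepatocyte markers were abundant in both tables. The 7 kept had a median of 0.26, which is -0.01 relative to all members, and ran from Asgr1 at -0.15 to Alb at 1.21. Against coding members of like length their median was 0.30, with 6 of 7 above 0. The 3 set apart had a median of 0.69 and ran from -0.14 to 0.84. Mean CPM of 10 hepatocyte genes summed to 63655 (larger) and 38583 (smaller), of which Alb held 34998 and 15083. Hepatocyte markers had no library values, so they are absent from the sums per library below. Markers of the other liver cells were detected in both tables. Sinusoidal endothelial markers had a median of 1.03 over 14 kept genes, all above 0 and 7 at least 2-fold higher. In all 14, every library of the larger table was above those of the smaller, beside 50% of all resolved members. Cdh5, the cadherin of endothelial junctions, had 7.58, 7.64, 8.64 and 10.1 CPM against 2.81, 2.85, 2.91 and 2.99. Kupffer cell and macrophage markers had a median of 0.61 over 14 genes, all above 0. Clec4f, a lectin of Kupffer cells, had 43.2, 43.8, 45.5 and 46.1 CPM in the larger table, against 31.9, 35.6, 36.5 and 37.8 in the smaller. Stellate cell and fibroblast markers had a median of 0.78 over the 9 genes kept of 16 named, all 9 above 0. Col1a2, a type I collagen chain and a member through its mean in the larger table alone, was highest at 1.48. In bulk RNA, fewer cells of a type and less RNA per cell cannot be told apart.

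Summed marker levels take every marker gene with library values, those under the minimum mean or set apart included. The sum per library ran from 134 to 155 CPM in the larger table, against from 69.8 to 81.6 in the smaller for the 17 endothelial genes. It ran from 358 to 437 and from 223 to 274 for 16 macrophage genes, and from 237 to 263 and from 140 to 157 for 15 stellate genes. Most of these markers encode proteins that enter the ER: a hydrophobic start or 2 or more segments was found in 12 of 14 endothelial, 10 of 14 macrophage and 6 of 9 stellate genes kept. Relative to the same length class the list medians were 0.61, 0.68 and 0.65. Leukocyte markers were summed over 16 genes at 15.4 to 18.3 CPM in the larger table, against 21.2 to 25.2 in the smaller. Of 17 leukocyte markers in both tables, 12 were under 1 CPM in the larger and 9 in the smaller. Erythroid genes overlapped, at 154 to 224 and 122 to 209 CPM over 7 genes; of this list 1 gene was a kept member and 4 were set apart. The part of cell composition in the other ratios was not tested.

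The CPEB family and proteins of cytoplasmic polyadenylation, which set poly(A) tail length and translation of bound mRNAs, had a median of 0.28 over 15 genes, 0.01 above that of all members. Cpeb4 itself, the gene named in the knockout label, stood at 28.5 CPM in the larger table, against 11.8 in the smaller, a ratio of 1.27. These means pool knockout and wild-type libraries, whose Cpeb4 values were not resolved. In the authors' deposited table Cpeb4 had a log2 fold change between the genotypes of -1.16 (SE 0.105) in the larger table, against -1.10 (SE 0.134) in the smaller. Cpeb2 (0.83) and Cpeb3 (0.88), its nearest relatives, also lay above the members' median, whereas Cpeb1 stood at -0.39. Cpeb3 libraries held 10.1, 10.2, 10.8 and 12.8 CPM against 4.74, 4.76, 6.72 and 7.70. Cpeb1 libraries held 17.3, 18.5, 19.5 and 21.1 CPM against 23.6, 24.7, 25.6 and 26.3. Tob1 and Tob2, which recruit the deadenylase complex, stood at 1.15 and 1.10.

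**Figure D4:**
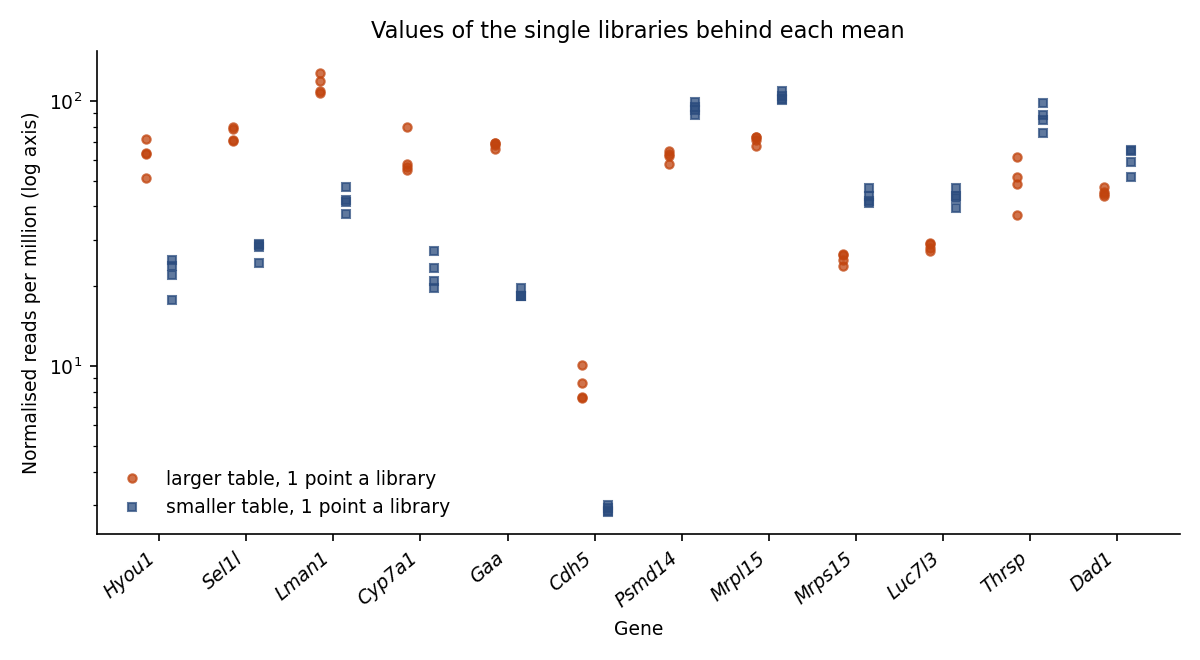
CPM (y axis, log scale) of the single libraries behind each mean for 12 genes (x axis), with circles for the larger table and squares for the smaller, 1 point a library. The first 6 genes lie higher in the larger table, against the last 6 in the smaller, with no overlap between the tables.

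The members with the largest ratios and at least 100 normalised reads in both tables had transcripts of 743 to 15468 bases. Ulbp1, a ligand of the natural killer cell receptor NKG2D, was highest at 4.59, with 78.8, 82.1, 89.8 and 95.5 CPM in the larger table, against 3.36, 3.46, 3.49 and 4.08 in the smaller. Gm15286, a processed transcript, stood at 4.03 and Ryr3, a calcium release channel, at 4.01. Ryr3 held 45.3, 48.9, 49.2 and 53.1 CPM in the larger table. In the smaller it held 2.78, 3.10, 3.12 and 3.23. Col18a1, the collagen chain that contains endostatin, stood at 3.98, with 239 and 15.2 CPM. Gabrb1, a GABA receptor subunit, and Nrg3, a neuregulin of the nervous system, stood at 3.40 and 3.19. The rest of the 12 highest were 1700016D06Rik (3.66), Gpam (3.16), Baz2b (3.10), Sntb1 (3.04), Adamts6 (2.87) and Wdr70 (2.8). Introns and unannotated sequence were not searched for copies here, so a shared sequence outside annotated exons was not tested.

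At the other end stood Mir6236, a miRNA gene, at -3.46, with 47.8 CPM in the larger table, against 528 in the smaller. Its mature sequence in RefSeq (GRCm38.p6, chr9:110281353-110281371, plus strand), with the seed of bases 2 to 8 in capitals, is shown because it belongs to the lowest ratio of all members with at least 100 in both tables. The CPM values are of reads assigned to the gene, annotated at 123 bases, and the level of the mature miRNA was not measured.
mmu-miR-6236: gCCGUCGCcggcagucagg

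Gm25911, another miRNA gene, stood at -2.26, with 16.5, 16.8, 19.2 and 20.5 CPM in the larger table, against 77.1, 83.5, 89.7 and 98.1 in the smaller. Tmtc2, an ER-resident mannosyltransferase, stood at -2.89, Sspn, a membrane protein of the dystrophin complex, at -2.37, and Arhgap21, a GTPase-activating protein, at -2.29. Itga9, an integrin subunit, stood at -2.10 and Gphn, gephyrin, at -1.97. Kcns3, a potassium channel subunit, had 2.99, 3.26, 3.29 and 3.77 CPM against 13.6, 14.3, 15.6 and 17. The rest of the 12 lowest were Nkain2 (-2.43), Mmrn2 (-2.09), Kcnip1 (-1.91) and Gm29502 (-1.91). Tmtc2, Nkain2, Sspn, Kcns3 and Itga9 encode 2 or more hydrophobic segments, and their ratios lay against the direction of that class. For the lowest members, too, introns and unannotated sequence were not searched for copies. Whether their reads came from these transcripts was not tested. In the smaller table the authors' deposited genotype log2 fold changes were -0.18 to -0.14 for Mir6236, Gm25911, Tmtc2, Sspn, Arhgap21, Itga9, Gphn and Kcnip1. Those of Kcns3, Mmrn2, Gm29502 and Nkain2 were -0.02, -0.02, 0.09 and 0.52.

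Some members were nearly absent from one table. The lincRNA 4933405E24Rik had 5.75, 6.24, 6.64 and 6.64 CPM in the larger table, whereas 3 libraries of the smaller table had 0 and 1 had 0.0323. Sctr, the secretin receptor, had 1.72, 3.17, 3.42 and 4.09 CPM in the larger table. In the smaller table it had 0 in 3 libraries and 0.033 in 1. In the other direction Slc35f3, a solute carrier, had 0.0639, 0.237, 0.238 and 0.261 CPM in the larger table, against 21.2, 21.5, 22 and 22.4 in the smaller. Glp2r, the receptor of glucagon-like peptide 2, had 0.0808 CPM in the larger table, against 2.86 in the smaller. These genes entered only through the table in which they are high. No ratio is given for genes with a few reads in one table.

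Among kept members, the genes with the highest CPM in either table, a measure that also grows with transcript length, were proteins of hepatocyte metabolism and secretion. Genes set apart, which hold 49.4% of the larger table's sum and 50.5% of the smaller's, are not ranked here. Those of secreted proteins were Alb, Apoe, Apoa1, Apoa2 and Ahsg, with ratios of 1.21, 0.43, 0.56, -0.28 and 0.67. Those of enzymes and carriers of the cytosol, peroxisome or mitochondrion included Mat1a, Pck1, Cat, Arg1, Phyh and Fabp1, whose ratios ran from -0.03 for Pck1 down to -1.14 for Fabp1. The median of all members, 0.27, lay above each of these 6.

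The genotype comparison is the authors' own and was set beside the level. By the adjusted p of the authors' deposited table, 26 of 6667 members with a value were under 0.05 (0.39%) in the larger table and 23 of 6580 (0.35%) in the smaller. Among members at least 2-fold higher in the larger table, 3 of 815 and 3 of 725 were called, and among those at least 2-fold lower, 3 of 150 and 5 of 153. Cpeb4 was called in both. Gstt1, Inmt and Lgals1, a glutathione transferase, an N-methyltransferase and galectin-1, had ratios of -1.11, -1.09 and -1.13 between the tables. Their log2 fold changes between the genotypes in the authors' deposited table were -0.38, -0.50 and -0.54 in the larger and -0.44, -0.63 and -0.69 in the smaller, called in both. Pdia5, an ER disulfide isomerase, and Srebf1 were called in the larger alone, at 0.40 and -0.41 in the authors' deposited table, and stood at 0.29 and -0.32 in the smaller. G6pc, glucose-6-phosphatase of the ER membrane, was called in the smaller alone, at 0.58 against 0.25 in the larger, per the authors' deposited table. Also called in the smaller alone were Tob1, Nkain2 and Pde1c, at 0.47, 0.52 and 0.66, against 0.26, 0.15 and -0.05 in the larger, per the authors' deposited table. Whether genotype changes differed between the tables was not tested here.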

How the data were processed

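RNA was sequenced from 8 mouse samples, and the analysis starts from 2 deposited tables without sample columns (columns of per-sample values not used: 0). STAR 2.3.0e, DESeq2 1.6.3 and mm10 are named without roles in the submitters' processing notes; for the counter, strand setting and annotation, the sources used here give nothing. Per the file headers, the authors computed for each gene a mean signal (counts over size factors), a log2 fold change and its SE, a Wald score and p-values before and after adjustment. Means were divided by the table's sum and multiplied by 1000000, with no pseudocount. Depth is known only relative to other libraries: size factors were 0.717 to 1.26 (larger table) and 0.839 to 1.64 (smaller).

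Identifiers were matched to GENCODE M21 (GRCm38, the assembly of mm10; 20348 of 20460 matched). Shared words are 31-base words of a gene's exons found in another annotated gene; the limit of 5% was chosen after seeing how ratios widened with the share. Hydropathy was computed from translated reading frames of transcripts chosen as for the printed coding starts. Transcript length and GC content are those of the longest basic transcript.

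Each mean is a sum of whole reads over 4 libraries, each weighted by its size factor. The weights were read from genes with 1 read, and the one set of whole reads giving the printed mean was searched with an allowed spread of 0.10. Of genes with means of 100 to 5000, 95.9% (larger table) and 97.3% (smaller) were resolved. Genes whose libraries spread widely are less often resolved, and the search settings were chosen after seeing the data. Size factors recomputed from these reads differed from the weights by at most 0.317% and 0.514%. The search was tried on simulated libraries that spread less than it allows, and the ratios on simulated counts with counting noise alone. Neither simulation covers genes whose libraries spread more widely, so how often their reads are right was not tested.

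Named genes are the 12 highest and 12 lowest ratios with at least 100 in both tables, the 6 highest and 6 lowest under 100 in one, the highest, lowest and 3 most abundant of each list, the 10 highest CPM per table, the 8 largest ratios among genes set apart, the genes beside the minimum, and Cpeb4; others with library values or named beside a list were chosen after their values were seen. Some genes that this rule names are not reported here. Members and lists were chosen with earlier results of these data known. Alternatives covered scaling, minimum mean, word limit, pseudocount, fold, hydropathy threshold and single libraries. Tools were Python 3.11.15, pandas 2.3.3, numpy 2.4.6 and matplotlib 3.10.9.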

Additional observations from a re-analysis of the deposited data

How the results depend on the processing

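Counts of members at least 2-fold higher and lower in the larger table (815 and 153) became 493 and 404 when recentred on the members' median, 1983 and 631 at a fold of 1.5, and 185 and 18 at a fold of 4. Without a limit on shared words they were 2199 and 377, with a limit of 50% 1668 and 283, and with 25%, an alternative added after seeing the data, 1289 and 248. The higher count was 413 at a minimum mean of 500 and 541 with 100 in both tables. Under the authors' size-factor scale, the table sum without its 50 highest genes, a minimum mean of 50, a 10% limit, a pseudocount of 0.5, coding genes alone and genes without overlapping exons, both counts stayed within 1.5 times. Over members with library values, leaving out each library gave 722 to 769 higher (730 with all) and 78 to 104 lower (87).

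The medians of 19 lists, relative to all members, kept their sign in all 152 values from settings other than leaving out libraries. Against the same length class, chosen after seeing the data and again relative to the median of all members, they were 0.88 for secreted proteins, 0.68 for ER membrane enzymes, 0.95 for lysosomal proteins, -0.43 for the proteasome, -0.45 for cytosolic enzymes, -0.39 for oxidative phosphorylation, -0.48 for matrix enzymes, -0.29 for mitochondrial ribosomal proteins, -0.46 for peroxisomal enzymes, -0.38 for cytosolic chaperones, -0.29 for splicing factors, 0.015 for chromatin regulators, 0.60 for endothelial and 0.68 for macrophage markers. Mitochondrial ribosomal proteins stood at -0.94 with no limit on shared words, -0.91 at 10%, -0.90 at 50% and -0.89 with no minimum mean. Peroxisomal enzymes stood at -0.62 with no limit and -0.57 at 50%, chromatin regulators at 0.43 at 10% and 0.27 with no minimum, and endothelial markers at 0.63 with no limit, 0.92 with 100 in both tables and 0.58 with no minimum. Translocon genes without overlapping exons stood at 0.25. Fasting-induced genes (0.17 over 17) stood at 0.04 with no limit on shared words or no minimum mean and 0.07 at a limit of 50%. The 5 of them with library values stood at -0.10 and, leaving out each library, ran from -0.20 to 0.016: the sign of these 5 turned without library 1 of the larger table or library 3 of the smaller. Lipogenic genes (0.35 over 11) stood at 0.15 against the length class, 0.19 with no limit on shared words, 0.22 at 50% and 0.21 with no minimum. The 8 of them with library values stood at 0.22, and at 0.13 without library 1 of the larger table or library 3 of the smaller. Members with 1 segment stood at -0.022 relative to coding members with a threshold of 2.2. The cause of these shifts was not tested.

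No paired analysis was possible because the library values could not be matched to samples or to their replicate numbers. Each ratio sets one table against another, so preparation, sequencing and processing cannot be told apart.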
